A study of Naumovozyma castellii with 24 samples.

Results

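The response described here is that of Naumovozyma castellii cells lacking the repressor gene ROX1 to cobalt chloride, a salt used to imitate low oxygen. It was taken from 4 of the 24 RNA-seq libraries of the study, chosen by their labels. They are 2 libraries of rox1 cells with CoCl2 (rox1-/-, 0.6 mM CoCl2) and 2 of rox1 cells without it. The comparison asks which responses to cobalt remain without ROX1. Its yardstick was the same treatment in wild type (WT, 2 libraries with CoCl2 and 3 without). Strains lacking ROX1 and ROX2 together (rox1/rox2, 2 and 2 libraries) or ROX2 alone (rox2, 2 and 3 libraries) served for 1 further comparison. Per the labels, the strain background of all these samples was DBP004, and cells grew in YPD at 30 °C in 21% oxygen to an A600 of 1 and then for 2 h with or without CoCl2. The labels call the libraries biological replicates and do not say whether each deletion strain was 1 clone.

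In Saccharomyces cerevisiae, Rox1 is made when haem and oxygen are present and shuts off genes needed in low oxygen, among them genes for haem, sterol and fatty acid synthesis. Cobalt ions interfere with iron and haem chemistry and so turn on part of the low-oxygen programme in air. Sterol, haem and unsaturated fatty acid synthesis all consume oxygen, which is why their genes are read as reporters of oxygen supply. The roles given below are those known for the S. cerevisiae genes of the same symbol.

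The strain carried its deletion in every library. ROX1 had 0 counts in both rox1 libraries with CoCl2, below the limit of 3 counts that a count of 0 allows, and 1 and 0 counts in the rox1 libraries without it. In WT it had 392 and 238 counts with CoCl2, against 216, 215 and 191 without. Without CoCl2, the test called a difference between rox1 and WT for 3 of 5544 genes (0.0541%). The genes tested included ROX1 itself, whose counts are fixed by the deletion. The comparison rested on 2 untreated rox1 libraries that differed from each other, and a gene not called is not thereby shown to be equal. NCAS0E02010, which has counts only in strains that keep ROX2 and is not equated with that gene here, had 4.53 and 2.42 normalised counts (counts per M reads in genes, CPM) in rox1 with CoCl2, against 4.58 and 2.79 without. It had 15.4 and 15.2 CPM in WT with CoCl2, against 1.78, 1.60 and 2.00 without. Its response in rox1 was thus smaller by 3.16 on the log2 scale (difference −3.16, SE 0.52, adjusted p = 0.0203). That call did not hold in every fit that left out 1 library, and the level was low, with a mean log2 CPM of 1.62.

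The 4 rox1 libraries held 9.51 M and 11.19 M gene counts with CoCl2, against 9.72 M and 11.38 M without, and all 18 libraries of the deletion experiment held 5.59 M to 12.74 M. Across all tested genes, rox1 libraries with CoCl2 had rank correlations of 0.954 and 0.964 with the untreated libraries of their strain, against 0.829 and 0.896 for WT. Replicate 1 of untreated rox1 stood apart. Its rank correlation with untreated WT was 0.969, against 0.992 for replicate 2. Several counts below are therefore given with and without it, and the others include it. Reads that matched several places, which were not counted, came to 42.8 and 37.7 per 100 gene counts in rox1 with CoCl2, against 30.1 and 28.8 in rox1 without. In WT they came to 24.4 and 23.8 with CoCl2, against 29.3 to 35.5 without.

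Most of the cobalt response that passed the test in WT did not pass it in rox1, and what passed in rox1 was mostly shared with WT. In rox1, 269 genes rose (4.85% of 5544) and 178 fell (3.21%), at an adjusted p under 0.05. In WT, 2607 responded (47.0%), of which 1533 rose (27.7%) and 1074 fell (19.4%). Of the genes that rose in rox1, 250 also rose in WT, which is 92.9% of the rox1 rises and 16.3% of the WT rises. Of those that fell in rox1, 136 also fell in WT, which is 76.4% of the rox1 falls and 12.7% of the WT falls. FHN1 alone moved in opposite directions, at −1.46 in rox1 and 1.16 in WT, and its fall in rox1 was called in 2 of the 4 fits without a rox1 library, with an adjusted p of 0.426 without rox1 replicate 1.

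A gene called in WT and not in rox1 is not thereby shown to respond less in rox1, so the difference of the responses was tested. The difference was called for 261 genes (4.71%). The response was higher in rox1 than in WT for 45 of them (0.812% of genes tested) and lower for 216 (3.9%). Among the 1533 WT rises, 213 had a smaller response in rox1 by this test, and 1088 (71.0%) were neither called in rox1 nor different from WT. Among the 1074 WT falls, 43 had a smaller response in rox1 and 896 (83.4%) were neither called nor different. The values themselves lay mostly in the WT direction, for 1269 of the WT rises and 867 of the WT falls. Over the WT rises the median log2 fold change was 0.34 in rox1 against 1.04 in WT, and over the WT falls −0.33 against −0.88, with medians over all genes of 0.04 in rox1 and 0.00 in WT. Genes that rose in rox1 had a median of 1.08 in rox1 and 1.32 in WT, and genes that fell in rox1 a median of −0.94 and −0.92. The count of 447 rox1 calls (8.06%) moved with single libraries. It was 126 without rox1 replicate 1, 930 without rox1 replicate 2, 201 without rox1 CoCl2 replicate 1 and 328 without rox1 CoCl2 replicate 2. In all 4 of these fits, 87 rises and 15 falls kept their call. The count of 261 differences was 26, 24 and 90 without WT replicates 1, 2 and 3, and 66 without WT CoCl2 replicate 1. It was 28 and 504 without rox1 replicates 1 and 2, and 431 and 19 without rox1 CoCl2 replicates 1 and 2.

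**Figure D1:**
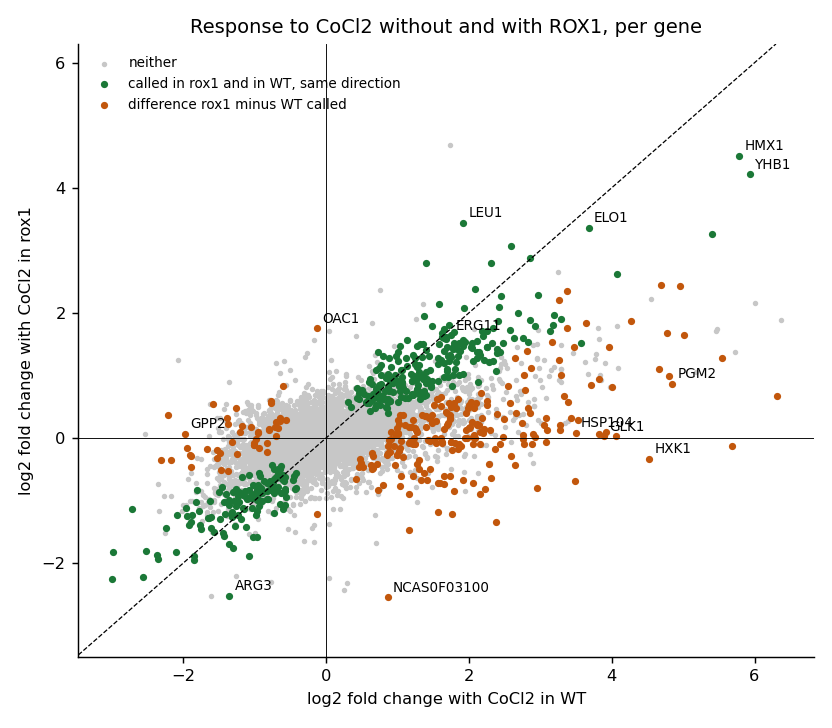
Each point is 1 of the tested genes except ROX1, with the log2 fold change with CoCl2 in rox1 on the vertical axis and in WT on the horizontal axis. Green points were called in both strains in the same direction, orange points had a called difference between strains, grey points had neither, and the dashed line marks equal responses. HMX1, YHB1 and ELO1 lie high in both strains, whereas HXK1, GLK1 and HSP104 lie far to the right near 0 in rox1.

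Among genes that passed the test, HMX1 and YHB1, which act on haem and nitric oxide, rose most in rox1. HMX1, which encodes haem oxygenase, the enzyme that breaks haem down, had 56.5 and 32.8 CPM in rox1 with CoCl2, against 2.80 and 1.26 in rox1 without. It rose 22.8-fold (log2 fold change 4.51, SE 0.52, adjusted p = 0.000194). In WT it had 235 and 159 CPM with CoCl2, against 4.24, 4.17 and 2.11 without. The groups did not overlap in either strain, and the difference between the strains was −1.28 (SE 0.68, adjusted p = 0.258). YHB1, the flavohaemoglobin that detoxifies nitric oxide, had 484 and 357 CPM in rox1 with CoCl2, against 27.5 and 17.7 without. It rose 18.7-fold (4.22, SE 0.40, adjusted p = 5.31e-05), against 61.1-fold in WT, and the difference did not pass the test (−1.71, SE 0.48, adjusted p = 0.0563). Both rises held with each rox1 library left out.

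Of the 11 tested genes of haem synthesis and breakdown, 3 rose in rox1 and none fell, against 4.85% of all genes that rose. Besides HMX1 these were HEM12 (0.84, SE 0.21), uroporphyrinogen decarboxylase, and HEM2 (0.77, SE 0.17), which makes porphobilinogen. HEM12 and HEM2 lost their calls without rox1 replicate 1 (adjusted p = 0.325 and 0.147) and without rox1 CoCl2 replicate 1. HEM13, the oxygen-consuming coproporphyrinogen oxidase and a classical target of Rox1 in S. cerevisiae, had 241 and 206 CPM in rox1 with CoCl2, against 289 and 209 without. In WT it had 444 and 361 CPM with CoCl2, against 208, 194 and 249 without. The rox1 groups overlapped and the WT groups did not, but the difference of the responses missed the threshold (−1.05, SE 0.31, adjusted p = 0.0644).

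The shares over all genes, to set beside each list count, were 4.85% rising and 3.21% falling in rox1. In WT they were 27.7% and 19.4%. Of the 29 gene lists examined, ergosterol synthesis had the largest share of members that rose in rox1. Of its 24 tested genes, 19 rose in rox1 and none fell, and 23 rose in WT. The list's median log2 fold change was 1.29 in rox1 and 1.69 in WT. ERG13, which makes HMG-CoA at the head of the mevalonate pathway, had 1610 and 1620 CPM in rox1 with CoCl2, against 505 and 422 without (1.80, SE 0.24, adjusted p = 0.000529). ERG11, the oxygen- and haem-dependent lanosterol demethylase, had 1480 and 1350 CPM in rox1 with CoCl2, against 456 and 450 without (1.64, SE 0.19, adjusted p = 0.000203). WT reached 1450 and 1570 CPM of ERG11 with CoCl2, against 422, 474 and 462 without, a difference between strains of −0.10 (SE 0.26, adjusted p = 0.832). In both genes the treated rox1 libraries lay far above the untreated ones, and for ERG11 the treated levels of the strains overlapped.

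The rises ran along the pathway. Among the mevalonate steps, ERG10 rose by 1.50, HMG1 by 1.24, ERG8 by 1.20, MVD1 by 1.62, IDI1 by 1.31 and ERG20 by 1.23 on the log2 scale. Among the later steps, which use oxygen several times over, squalene epoxidase ERG1 rose by 1.59, ERG25 by 1.46, ERG26 by 1.45, ERG6 by 1.32 and ERG5 by 1.39. These 11 genes, ERG11 and ERG13 kept their call with each rox1 library left out. The list's count was 13 without rox1 replicate 1 and also 13 without rox1 CoCl2 replicate 1, 18 without rox1 replicate 2 and 17 without rox1 CoCl2 replicate 2.

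For 4 genes of the pathway the response was smaller in rox1 than in WT. ERG4, the last reductase, had 121 and 111 CPM in rox1 with CoCl2, against 134 and 112 without, and 274 and 220 CPM in WT with CoCl2, against 107, 102 and 111 without. Its difference was −1.30 (SE 0.25, adjusted p = 0.0198). ERG5, a C-22 desaturase, rose in both strains with a difference of −1.42 (SE 0.26, adjusted p = 0.0179). ERG24 and ERG27 also rose in both, with differences of −0.96 (SE 0.19) and −0.95 (SE 0.19). None of these 4 differences passed without WT replicate 1, WT replicate 2, rox1 replicate 1 or rox1 CoCl2 replicate 2, and 1 passed without WT CoCl2 replicate 1. Over the 24 genes, 8 differences had an unadjusted p under 0.05 and DESeq2 called 6, all lower in rox1.

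**Figure D2:**
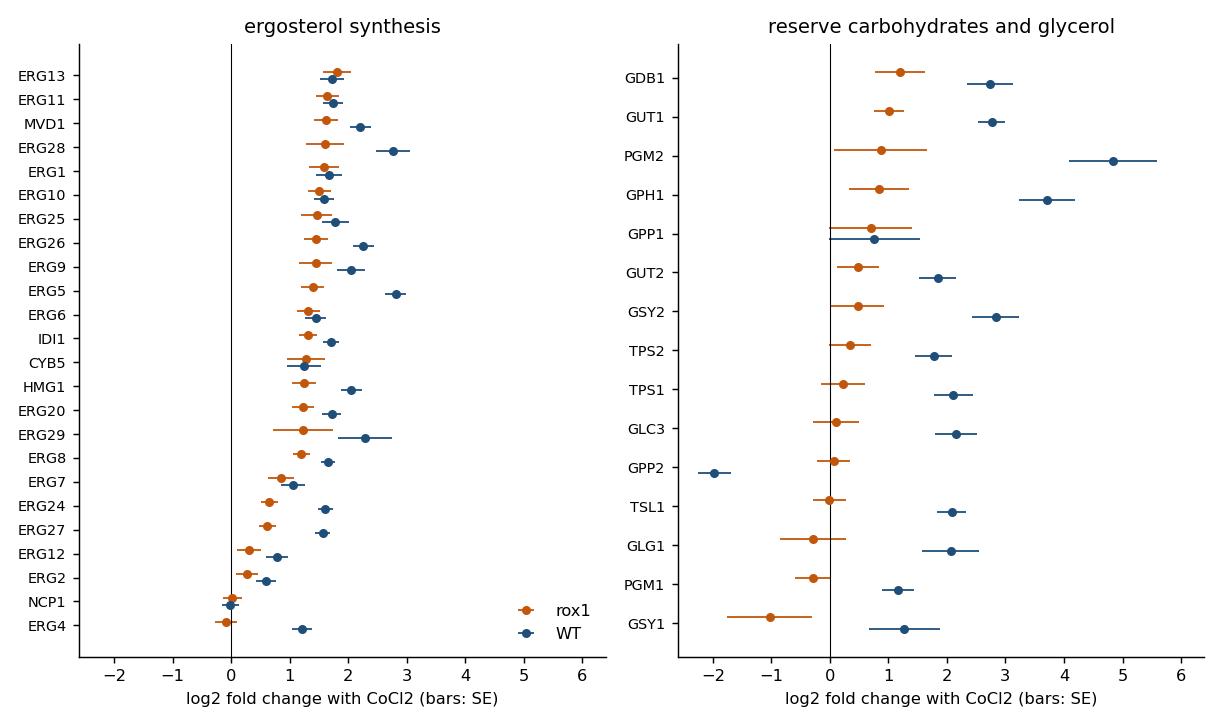
Log2 fold change with CoCl2 in rox1 (orange) and WT (blue) for each tested gene of 2 lists, with bars of 1 SE. In ergosterol synthesis most orange points lie between 1 and 2 beside the blue ones, while in reserve carbohydrates most orange points lie below 1 and most blue points above them, with GPP2 the other way round.

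In fatty acid synthesis, ELO1, a fatty acid elongase, had 333 and 315 CPM in rox1 with CoCl2, against 30.3 and 32.5 without. It rose 10.3-fold (3.37, SE 0.29, adjusted p = 3.3e-05), against 12.8-fold in WT, and the difference was −0.31 (SE 0.35, adjusted p = 0.594). FAS1, a subunit of fatty acid synthase, rose by 1.18 in rox1 and 1.24 in WT on the log2 scale. ELO2, an elongase of longer chains, fell by 0.98 in rox1 and by 1.10 in WT, a call that was lost in rox1 without rox1 replicate 1 or rox1 CoCl2 replicate 1 (adjusted p = 0.0563 and 0.0689). Of the 11 genes of this list, 2 rose and 1 fell in rox1. OLE1, the oxygen-dependent desaturase, had 8170 CPM in both treated rox1 libraries, against 6050 and 4640 in the untreated ones. The groups did not overlap, and the change missed the threshold (0.61, adjusted p = 0.0694).

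Genes of the respiratory chain and ATP synthase rose in both strains, and part of them rose less without ROX1. Of 38 tested, 15 rose in rox1 and none fell, and 36 rose in WT. The list's median was 0.98 in rox1 and 1.98 in WT. The summed level of the list was 3405 and 2081 CPM in rox1 with CoCl2, against 1633 and 1420 without, and 6511 and 5066 CPM in WT with CoCl2, against 1548, 1626 and 1759 without. The treated rox1 libraries thus lay above the untreated ones and below the treated WT libraries.

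Among the members, CYC1, the main cytochrome c, had 139 and 88.5 CPM in rox1 with CoCl2, against 42.0 and 29.2 without (1.68, SE 0.30, adjusted p = 0.00379). Its response in WT was nearly the same in size (1.63, difference 0.05, SE 0.40, adjusted p = 0.955). COX12 rose by 1.81, COX6 by 1.72, COR1 by 1.60, COX7 by 1.54 and ATP5 by 1.25 in rox1 on the log2 scale. They encode subunits of cytochrome c oxidase, of the cytochrome bc1 complex and of ATP synthase. QCR6, a further bc1 subunit, rose by 1.87, a call lost without rox1 CoCl2 replicate 1 (adjusted p = 0.0502). Of the 15 calls, 9 held with each rox1 library left out, and the count was 11 without rox1 replicate 1, 14 without rox1 replicate 2, 9 without rox1 CoCl2 replicate 1 and 18 without rox1 CoCl2 replicate 2.

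For 8 genes of this list the response was lower in rox1. NDE1, the external NADH dehydrogenase, had 12.8 and 4.40 CPM in rox1 with CoCl2, against 3.57 and 4.31 without, and 102 and 169 CPM in WT with CoCl2, against 3.73, 4.26 and 8.23 without (difference −3.57, SE 0.75, adjusted p = 0.0266). The rox1 groups did not overlap, but treated replicate 2 lay close to the untreated libraries, and the response of NDE1 in rox1 missed the threshold (1.10, adjusted p = 0.274). CYC7, the cytochrome c of low oxygen in S. cerevisiae, rose in rox1 by 1.45 and in WT by 3.48, with a difference of −2.02 (SE 0.53, adjusted p = 0.0457). The rise of CYC7 in rox1 was lost in 3 of the 4 fits without a rox1 library, with the highest adjusted p of 0.411 without rox1 CoCl2 replicate 1. The others were QCR7 (−2.03), STF1 (−1.79), CYT1 (−1.75), COX7 (−1.62), COX13 (−1.36) and ATP3 (−1.22). The count of 8 was 0 without WT replicate 1, WT replicate 2, rox1 replicate 1 or rox1 CoCl2 replicate 2, 2 without WT replicate 3, 3 without WT CoCl2 replicate 1 and 19 without rox1 CoCl2 replicate 1. At an unadjusted p under 0.05, 26 of the 38 differences were lower in rox1, and DESeq2 called 17.

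In the TCA cycle list, which also holds cytosolic isoenzymes, 2 of 19 genes rose in rox1 and 16 in WT, against 4.85% and 27.7% of all genes. The list medians were 0.28 and 1.08, and no difference was called (11 lower at an unadjusted p under 0.05, 2 by DESeq2). The 2 rises were those of IDP2, an NADP-dependent isocitrate dehydrogenase, and MDH2, a malate dehydrogenase. Both are cytosolic enzymes and not the mitochondrial ones of the cycle. IDP2 had 19.7 and 6.64 CPM in rox1 with CoCl2, against 0.891 and 1.71 without (3.26, SE 0.70, adjusted p = 0.0104). Both calls were lost without rox1 replicate 1 or rox1 CoCl2 replicate 1, with a highest adjusted p of 0.149 for IDP2 and 0.136 for MDH2.

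**Figure D3:**
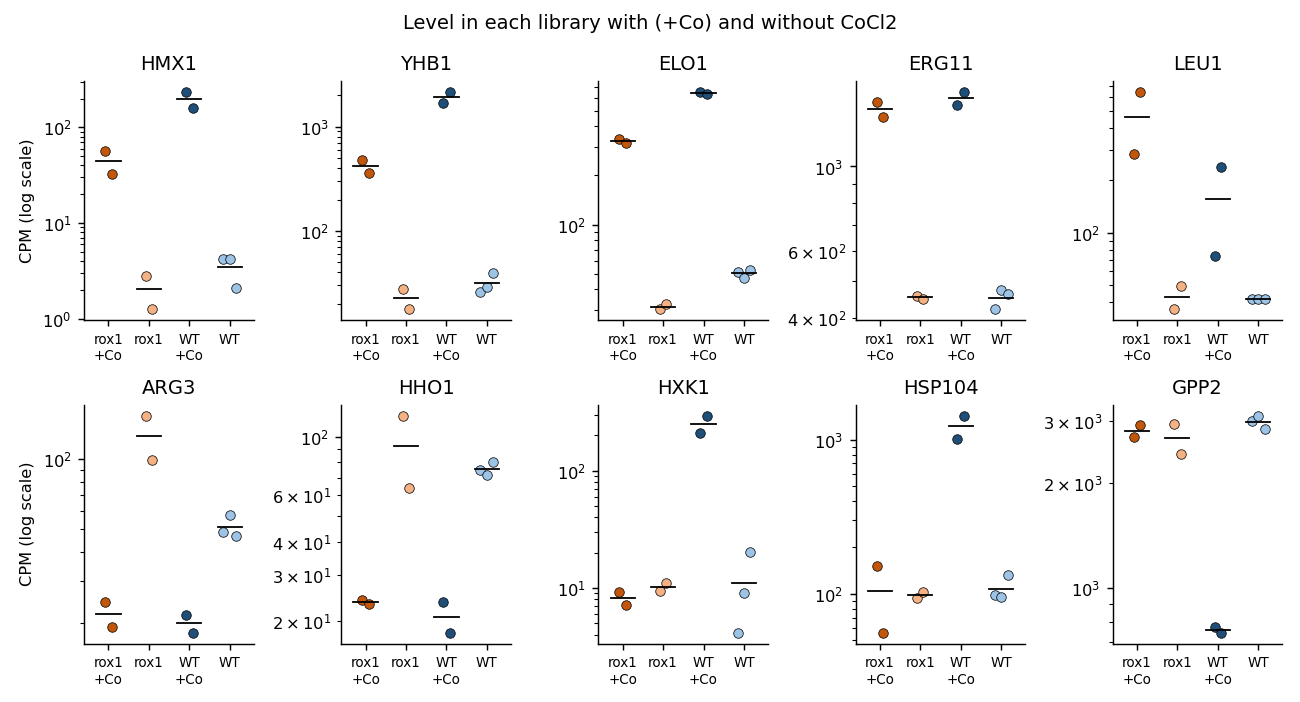
CPM of 10 genes in each library of rox1 with CoCl2 (+Co), rox1, WT with CoCl2 and WT, on a log axis, with a line at the group mean. HMX1, YHB1, ELO1, ERG11 and LEU1 are high in both treated groups, ARG3 and HHO1 are low in both, and HXK1, HSP104 and GPP2 are shifted in treated WT and level in rox1.

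LEU1, LEU2 and LEU9, 3 genes of leucine synthesis, rose in rox1. LEU1, the isopropylmalate isomerase, had 284 and 645 CPM in rox1 with CoCl2, against 36.3 and 49.1 without (3.44, SE 0.55, adjusted p = 0.00179). In WT it had 73.4 and 240 CPM with CoCl2, against 41.3, 41.3 and 41.4 without. LEU2, the next enzyme of the pathway, had 213 and 623 CPM in rox1 with CoCl2, against 85.6 and 75.8 without (2.37, SE 0.37), and LEU9, an isopropylmalate synthase, 414 and 919 CPM, against 229 and 200 (1.63, SE 0.28). The treated libraries lay above the untreated ones throughout, and replicate 2 of rox1 CoCl2 was the higher each time. All 3 calls held with each rox1 library left out. LEU2 and LEU9 were not called in WT, at 0.75 and 0.42, but the differences missed the threshold (1.62 and 1.22, adjusted p = 0.0666 and 0.0744).

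OAC1, a mitochondrial carrier of oxaloacetate and isopropylmalate, was the only gene that rose in rox1 and had a larger response there by the difference test. It had 135 and 180 CPM in rox1 with CoCl2, against 45.5 and 48.0 without, and 41.4 and 52.5 CPM in WT with CoCl2, against 54.5, 54.9 and 44.8 without. The difference was 1.89 (SE 0.42, adjusted p = 0.0305), and it was lost in 5 of the 9 fits that left out 1 library of these groups, with the highest adjusted p of 0.151 without rox1 CoCl2 replicate 2. The rise in rox1 itself (1.75, SE 0.31) lay at an adjusted p of 0.0503 without rox1 replicate 1. In amino acid synthesis as a whole, 6 of 58 genes rose in rox1 and none fell, the others being LYS2, LYS4 and LYS9 of lysine synthesis at 0.73 to 0.84. Of the 4 fits without a rox1 library, LYS2 and LYS4 were called in 1 each and LYS9 in 3, with highest adjusted p of 0.224, 0.363 and 0.0509. In WT 10 rose and 17 fell. The difference was higher for HIS6 (1.74) and lower for ARO9 and GDH2 (−2.50 and −3.10), and none of these held in every fit without 1 library.

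Sulfur assimilation rose in part. Of 28 genes, 7 rose in rox1 and none fell, whereas 9 rose and 9 fell in WT. MET17, which joins sulfide to O-acetylhomoserine, had 23.9 and 38.0 CPM in rox1 with CoCl2, against 8.53 and 6.20 without (2.08, SE 0.36, adjusted p = 0.003). MET13 rose by 1.37, MET6, the methionine synthase, by 1.29, and MET10, a sulfite reductase subunit, by 1.00, and these 4 kept their call with each rox1 library left out. MUP3, a low-affinity methionine permease, rose in both strains with a smaller response in rox1. It had 8.86 and 11.5 CPM in rox1 with CoCl2, against 4.71 and 3.95 without, and 25.5 and 30.2 CPM in WT with CoCl2, against 3.22, 2.57 and 2.85 without. The difference of −2.02 (SE 0.32, adjusted p = 0.00883) held in all 9 fits without 1 library.

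Among other genes, PAI3, an inhibitor of the vacuolar proteinase A, had 554 and 407 CPM in rox1 with CoCl2, against 18.3 and 95.8 without (3.07, SE 0.52, adjusted p = 0.0027). Its untreated rox1 libraries lay far apart, with replicate 1 at the low value. The unnamed genes NCAS0A01170 and NCAS0A03930 rose by 2.87 and 2.62 in rox1, and by 2.85 and 4.07 in WT. NCAS0A11110, which the annotation places next to ROX1, had 80.9 and 35.1 CPM in rox1 with CoCl2, against 7.51 and 8.98 without (2.80, SE 0.42, adjusted p = 0.00124). In WT it had 17.6 and 19.8 CPM with CoCl2, against 3.98, 3.64 and 3.59 without. The groups were apart in both strains, and the difference was 0.49 (SE 0.58, adjusted p = 0.612). Both rox1 groups carry the neighbouring deletion.

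The falls that remained included genes of arginine synthesis, histone genes and cell wall genes. ARG3, ornithine carbamoyltransferase, had 24.4 and 19.2 CPM in rox1 with CoCl2, against 153 and 98.5 without (−2.52, SE 0.36, adjusted p = 0.000874). In WT it had 21.6 and 18.1 CPM with CoCl2, against 48.6, 57.8 and 47.0 without. The treated levels of the strains overlapped, and untreated rox1 lay above untreated WT. ARG1 and ARG8, further enzymes of the pathway, fell by 1.30 and 1.29, calls that were lost without rox1 replicate 1 (adjusted p = 0.242 and 0.138) and without either rox1 CoCl2 library. Of 17 arginine genes, 3 fell in rox1 and none rose, and 4 fell and 3 rose in WT.

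HHO1, the linker histone, had 24.2 and 23.2 CPM in rox1 with CoCl2, against 120 and 63.9 without (−1.95, SE 0.30, adjusted p = 0.00148), and 23.6 and 18.1 CPM in WT with CoCl2, against 74.5, 71.3 and 80.3 without. HHF2, a histone H4 gene, fell by 1.50 in rox1 and by 1.58 in WT. The mitotic cyclin gene CLB2 had 37.5 and 33.2 CPM in rox1 with CoCl2, against 69.8 and 69.1 without (−0.97, SE 0.14, adjusted p = 0.00101), and fell by 0.81 in WT. These 3 falls kept their call in all fits without a rox1 library, and treated and untreated libraries did not overlap. In the cell cycle list, 8 of 49 genes fell and 1 rose in rox1, and 18 fell and 3 rose in WT. The count of falls was 5 without rox1 replicate 1, 13 without rox1 replicate 2, 2 without rox1 CoCl2 replicate 1 and 6 without rox1 CoCl2 replicate 2. The histone genes HHT1 and HHT2 lost their calls without rox1 replicate 1 (adjusted p = 0.177 and 0.822). In S. cerevisiae histone genes come in near-identical copies, and single levels are uncertain where that holds here.

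In the cell wall list, 9 of 34 genes fell in rox1 and none rose, and 12 fell and 2 rose in WT. They included PIR1 (−1.58), EGT2 (−1.50), AGA1 (−1.40) and CCW12 (−1.23). CCW12, an abundant wall mannoprotein, had 3060 and 3320 CPM in rox1 with CoCl2, against 8910 and 6070 without. The count rested on rox1 replicate 1, without which no cell wall gene was called, and it was 16 without rox1 replicate 2, 7 without rox1 CoCl2 replicate 1 and 4 without rox1 CoCl2 replicate 2. With all libraries, 15 of the 34 fell at an unadjusted p under 0.05, and DESeq2 called 13.

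Further large falls in rox1 were those of NCAS0H01220 (−2.23, SE 0.31) and of NCAS0B00940 (−1.88, SE 0.46). NCAS0B00940 lost its call without rox1 replicate 1 (adjusted p = 0.177). The neighbours NCAS0A10140 and NCAS0A10130 fell by 1.88 and 1.81. NCAS0F03100 had 47.7 and 63.5 CPM in rox1 with CoCl2, against 338 and 310 without (−2.54, SE 0.53, adjusted p = 0.00875), and 612 and 1490 CPM in WT with CoCl2, against 524, 587 and 624 without. The fall was lost without rox1 replicate 1 or rox1 CoCl2 replicate 1 (adjusted p = 0.0602 and 0.0961). Its difference of −3.40 (SE 0.69, adjusted p = 0.0207) was lost in 4 of 9 fits, with the highest adjusted p of 0.111 without rox1 CoCl2 replicate 2. NCAS0A10820 and FHN1 were the other 2 genes that fell in rox1 with a lower response there than in WT, with differences of −1.09 (SE 0.29) and −2.63 (SE 0.56). Both falls lost their call without rox1 replicate 1 (adjusted p = 0.0544 and 0.426), and each difference was called in 3 of 9 fits without 1 library.

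Responses of WT that were smaller in rox1 included those of genes for glucose phosphorylation and reserve carbohydrates. HXK1, a hexokinase, had 9.17 and 7.18 CPM in rox1 with CoCl2, against 9.42 and 11.1 without, and 210 and 295 CPM in WT with CoCl2, against 4.15, 9.14 and 20.1 without. Its difference was −4.85 (SE 0.95, adjusted p = 0.0203). GLK1, the glucokinase, had 228 and 76.2 CPM in rox1 with CoCl2, against 169 and 129 without, and 2880 and 1690 CPM in WT with CoCl2, against 79.9, 117 and 265 without (difference −3.87, SE 0.90, adjusted p = 0.032). In rox1 the groups overlapped for GLK1 and lay close together for HXK1, while in WT they were far apart.

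PGM2, the main phosphoglucomutase, had 64.9 and 6.91 CPM in rox1 with CoCl2, against 14.4 and 24.7 without, and 979 and 730 CPM in WT with CoCl2, against 15.7, 22.9 and 51.1 without. Its difference of −3.98 (SE 1.07, adjusted p = 0.0494) was called in only 1 of 9 fits without 1 library, and those of HXK1 and GLK1 in 5 and 4 of 9. The highest adjusted p, 0.164, 0.134 and 0.173, came without rox1 CoCl2 replicate 2 in each case. Of 15 genes of reserve carbohydrates and glycerol, 1 rose in rox1 and none fell, and 12 rose and 1 fell in WT, with medians of 0.34 in rox1 and 2.08 in WT. The rise was that of GUT1, glycerol kinase (1.01, SE 0.26), which was called in none of the fits without a rox1 library.

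The difference was lower in rox1 for 7 of these 15 and higher for 1. Besides PGM2 and GUT1 (−1.75), they were GPH1, glycogen phosphorylase (−2.87), GSY2, glycogen synthase (−2.36), GLC3, the branching enzyme (−2.06), and TSL1 and TPS1 of trehalose synthesis (−2.09 and −1.89). The higher one was GPP2, a glycerol phosphatase. GPP2 had 2700 and 2920 CPM in rox1 with CoCl2, against 2950 and 2410 without, and 772 and 745 CPM in WT with CoCl2, against 3010, 3110 and 2840 without (2.04, SE 0.39, adjusted p = 0.0198). The 8 calls were 0 without WT replicate 1, WT replicate 2, rox1 replicate 1 or rox1 CoCl2 replicate 2, between 2 and 7 without WT replicate 3, either WT CoCl2 library or rox1 replicate 2, and 10 without rox1 CoCl2 replicate 1. At an unadjusted p under 0.05, 13 of the 15 were lower in rox1, and DESeq2 called 10. In glycolysis and fermentation, no gene of 21 was called in rox1 (7 lower at an unadjusted p under 0.05, 5 by DESeq2). Differences were lower for 4 of them, HXK1, GLK1, EMI2 (−2.59) and GPM3 (−0.80), and none of these held in every fit without 1 library.

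Differences that held with every single library of the 4 groups left out numbered 17 of 261. Of these, 15 were lower in rox1. GAC1, a regulatory subunit of protein phosphatase 1 in glycogen synthesis, had 1.75 and 4.22 CPM in rox1 with CoCl2, against 5.09 and 5.48 without, and 16.2 and 35.8 CPM in WT with CoCl2, against 2.80, 3.19 and 4.01 without (−3.77, SE 0.62, adjusted p = 0.00911). HSP104, the disaggregase, had 152 and 55.8 CPM in rox1 with CoCl2, against 93.7 and 103 without, and 1010 and 1430 CPM in WT with CoCl2, against 97.5, 94.9 and 132 without (−3.41, SE 0.55, adjusted p = 0.00883). In rox1 the HSP104 groups overlapped, while in WT both treated libraries lay above the 3 untreated ones.

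The other lower ones with a symbol were ISF1 (−3.76), PHM7 (−3.07), DIN7 (−2.26), MSS11 (−2.19), LST4 (−2.16) and MUP3. ISF1 had 64.3 and 23.9 CPM in rox1 with CoCl2, against 36.8 and 47.7 without, and 352 and 664 CPM in WT with CoCl2, against 26.0, 34.1 and 48.2 without. MSS11 had 77.8 and 73.1 CPM in rox1 with CoCl2, against 64.3 and 58.0 without, and 92.5 and 68.1 CPM in WT with CoCl2, against 12.5, 17.7 and 12.7 without, so that only untreated WT stood low. The remaining 7 have no symbol, with differences between −5.64 and −1.22. The largest of them was that of NCAS0B02500.

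The 2 higher ones were RIM2, a mitochondrial carrier of pyrimidine nucleotides (1.48, SE 0.24), and SMB1, a spliceosome core protein (1.33, SE 0.21). RIM2 had 74.8 and 75.7 CPM in rox1 with CoCl2, against 84.8 and 86.3 without, and 26.1 and 23.1 CPM in WT with CoCl2, against 78.9, 80.1 and 75.1 without. SMB1 had 53.4 and 61.9 CPM in rox1 with CoCl2, against 62.3 and 70.2 without, and 26.6 and 26.0 CPM in WT with CoCl2, against 73.6, 73.6 and 80.3 without. Both fell in WT, and in rox1 their changes were −0.19 and −0.20 with an adjusted p of 0.552 and 0.457. Further large differences were called for EGO4 (−4.27) and NCAS0B08610 (−4.19), and on the higher side for NCAS0D00350 (2.58), PXR1 of ribosome assembly (2.13) and ENV9 (1.82). None of these was among the 17 that held with every single library left out. EGO4 was near the floor in untreated cells, with 1.27 and 1.35 CPM in rox1 and 1.27, 1.06 and 1.37 CPM in WT. With CoCl2 it had 5.36 and 1.17 CPM in rox1 and 57.5 and 58.7 CPM in WT.

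**Figure D4:**
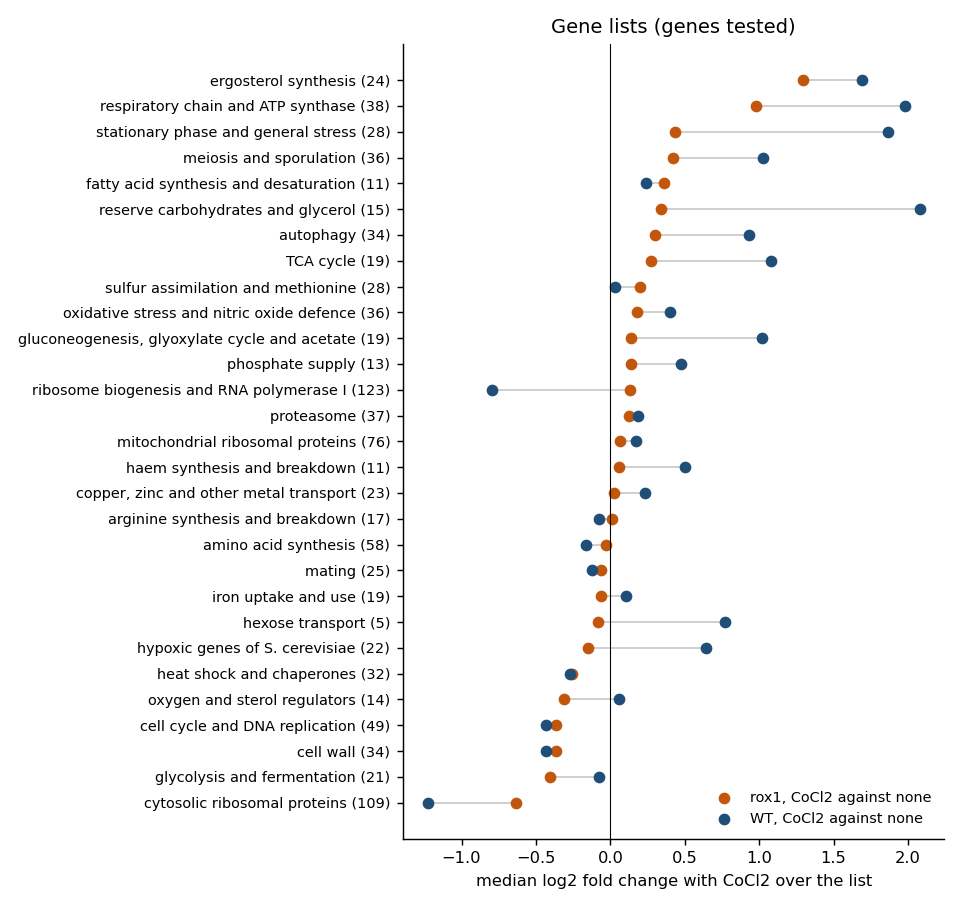
Median log2 fold change with CoCl2 over each of 29 gene lists in rox1 (orange) and WT (blue), with the number of tested genes in brackets. Ergosterol synthesis lies highest in rox1 at 1.29, and the widest gaps between the strains are those of reserve carbohydrates, stationary phase genes, the respiratory chain and ribosome biogenesis.

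Genes of stationary phase and general stress rose in rox1 in 2 of 28 cases, against 4.85% of all genes, and in WT in 26, against 27.7%. The list medians were 0.44 in rox1 and 1.86 in WT. The 2 that rose in rox1 were PAI3 and GRE1, a hydrophilin (1.47, SE 0.26). The summed level of the list was 3323 and 1817 CPM in rox1 with CoCl2, against 1533 and 1524 without. In WT it was 7078 and 6845 CPM with CoCl2, against 1373, 1417 and 1628 without. Both treated rox1 libraries thus lay above the untreated ones, replicate 1 far more so than replicate 2. The difference was called for EGO4 and PHM7, was lower in rox1 at an unadjusted p under 0.05 for 20, and was called by DESeq2 for 12. Without rox1 CoCl2 replicate 1, 13 differences were called, and without WT replicate 1, 2 or 3, WT CoCl2 replicate 1, rox1 replicate 1 or rox1 CoCl2 replicate 2, 1 was. Without WT CoCl2 replicate 2 or rox1 replicate 2 it was 5.

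Among 34 autophagy genes none was called in rox1 and 21 rose in WT, with medians of 0.30 and 0.93. In rox1, 8 were higher and 1 lower at an unadjusted p under 0.05, and DESeq2 called 0. The differences of ATG8, the ubiquitin-like protein of the autophagosome (−1.62), and ATG42 (−1.20) were called, and none of the list was without WT replicate 1, 2 or 3, WT CoCl2 replicate 1, rox1 replicate 1 or rox1 CoCl2 replicate 2.

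Of 109 genes of cytosolic ribosomal proteins, 1 fell in rox1 and 89 fell in WT. The median log2 fold change was −0.63 in rox1 and −1.23 in WT, and 108 of the 109 values in rox1 were negative. RPS28A was the one called (−1.44, SE 0.31), and it lost its call without rox1 replicate 1 (adjusted p = 0.154). At an unadjusted p under 0.05, 32 were lower in rox1, DESeq2 called 16, and 24 fell without rox1 replicate 2. The summed level of the list was 86790 and 123300 CPM in rox1 with CoCl2, against 213500 and 142000 without, and 46690 and 90940 CPM in WT with CoCl2, against 161600, 176500 and 167000 without. Treated libraries lay below untreated ones in both strains, and replicate 1 of untreated rox1 was the highest of all 9. The difference was called for RPL43B (1.96, SE 0.50, adjusted p = 0.0427), in 2 of 9 fits without 1 library. In S. cerevisiae duplicated ribosomal protein genes share sequence. The reads left out for matching several places moved in opposite directions with CoCl2 in rox1 and WT, as given above. The part of these reads in the result was not tested.

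In ribosome biogenesis and RNA polymerase I, no gene of 123 was called in rox1 (1 lower at an unadjusted p under 0.05, 0 by DESeq2) and 25 fell in WT. The medians were 0.13 in rox1 and −0.80 in WT. The summed level of the list was 49140 and 55200 CPM in rox1 with CoCl2, against 43540 and 51870 without. In WT it was 17610 and 42260 CPM with CoCl2, against 52120, 53660 and 48010 without. Treated WT libraries thus lay far apart, with replicate 1 much the lower. The difference was positive for 121 of the 123 genes, 22 were higher in rox1 at an unadjusted p under 0.05, none passed the adjusted threshold, and DESeq2 called 5.

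The low-oxygen genes of S. cerevisiae were called in rox1 in 5 of 22 cases, 4 higher and 1 lower, and in WT in 17 cases, 12 higher and 5 lower. Over all genes, 4.85% rose and 3.21% fell in rox1, and 27.7% and 19.4% did in WT. The rises in rox1 were those of ERG11, CYC7, the sterol importer gene AUS1 (0.98, SE 0.27) and MGA2 (0.88, SE 0.17), an activator of OLE1. TIR3, a cell wall mannoprotein gene, fell by 0.97 in rox1 and 0.95 in WT. Only ERG11 kept its call in all fits without a rox1 library, and the others lost it without rox1 replicate 1, at an adjusted p of 0.0503 for MGA2, 0.339 for AUS1, 0.311 for TIR3 and 0.356 for CYC7. ANB1, the low-oxygen form of eIF5A and repressed by Rox1 in S. cerevisiae, had 235 and 243 CPM in rox1 with CoCl2, against 464 and 543 without, and 99.8 and 172 CPM in WT with CoCl2, against 533, 549 and 550 without. Treated libraries were lower in both strains, and the change in rox1 missed the threshold (−1.07, adjusted p = 0.0641).

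Among 14 regulators of oxygen and sterol genes, MGA2 and ECM22, a sterol regulator (0.68, SE 0.19), rose in rox1, and MGA1, a gene related to heat shock factors, fell by 1.65 (SE 0.36). The shares over all genes in rox1 were 4.85% rising and 3.21% falling. ECM22 was called in none of the fits without a rox1 library, and MGA1 lost its call without rox1 replicate 1 or rox1 CoCl2 replicate 2 (adjusted p = 0.0709 and 0.106). HAP4, the activating subunit of the Hap2/3/4/5 complex, which drives respiratory genes, had 126 and 19.5 CPM in rox1 with CoCl2, against 69.0 and 66.8 without, and 256 and 537 CPM in WT with CoCl2, against 46.1, 58.3 and 79.4 without. The treated rox1 libraries lay on both sides of the untreated ones, and the difference missed the threshold (−2.59, SE 0.82, adjusted p = 0.0797). Differences were called for HAP2 (−1.25, SE 0.27), in 4 of 9 fits without 1 library, and for the haem-responsive activator HAP1 (−0.66, SE 0.18), in 1 of 9.

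In metal transport, CUP2, the copper-responsive activator (0.70, SE 0.19), and IZH2 (0.78, SE 0.16) rose in rox1 of 23 genes, and 8 rose in WT, against 4.85% of all genes in rox1 and 27.7% in WT. Both calls were lost without rox1 replicate 1 (adjusted p = 0.311 and 0.157). CTR1, the high-affinity copper transporter, had 81.0 and 49.5 CPM in rox1 with CoCl2, against 142 and 73.4 without, and 268 and 233 CPM in WT with CoCl2, against 48.5, 68.7 and 63.6 without (difference −2.78, SE 0.58, adjusted p = 0.026). ZRC1, the vacuolar zinc transporter, had 10.9 and 4.40 CPM in rox1 with CoCl2, against 19.2 and 15.4 without, and 73.6 and 65.1 CPM in WT with CoCl2, against 21.0, 24.7 and 24.6 without (−2.75, SE 0.55, adjusted p = 0.0205). ZRT3 differed by −1.06. All 3 differences were lost without WT replicate 1, WT replicate 2, WT CoCl2 replicate 1, rox1 replicate 1 or rox1 CoCl2 replicate 2. In iron uptake and use, no gene of 19 was called in rox1 (1 higher and 1 lower at an unadjusted p under 0.05, 0 by DESeq2). Differences were called for ISA2 of iron-sulfur assembly (−2.02) and GRX4 (−1.39), and neither held in every fit without 1 library.

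In the defence against oxidants and nitric oxide, 4 of 36 genes rose in rox1 and 17 in WT. Besides YHB1 they were MXR1, a methionine sulfoxide reductase (1.25, SE 0.29, and 0.07 in WT), GRX5, a glutaredoxin of iron-sulfur assembly (0.72, SE 0.14), and GTT1 (0.68, SE 0.18), and these 3 lost their calls without rox1 replicate 1 (adjusted p = 0.142, 0.104 and 0.326). For MXR1 the difference between strains missed the threshold (1.18, SE 0.385, adjusted p = 0.0846), and GPX1 differed by −3.07. Of 32 heat shock genes and chaperones, HSP78 (1.09), BTN2 (1.21) and HSP12 (0.98) rose in rox1 and SSA2 (−1.01) and HSF1 (−0.61) fell, with none of the 5 called without rox1 replicate 1. Over all genes 4.85% rose and 3.21% fell in rox1. HSP42 differed between strains by −2.71. In each of the lists of gluconeogenesis, mitochondrial ribosomal proteins, meiosis and mating, 1 to 2 genes rose in rox1, against 4.85% of all genes. In gluconeogenesis (19 genes) PCK1 rose (1.28), and the differences of ACS1 (−2.81) and SIP4 (−2.06) were called. Among mitochondrial ribosomal proteins (76 genes) MHR1 (1.32) and MRPS5 (0.80) rose, and in meiosis (36 genes) SSP2 (1.53) and ZIP1 (0.90). In mating (25 genes) FAR1 rose (1.13) beside the fall of AGA1. None of these rises was called without rox1 replicate 1. No gene of the 37 of the proteasome, the 13 of phosphate supply or the 5 of hexose transport was called in rox1. At an unadjusted p under 0.05, 5, 3 and 0 of them differed, and DESeq2 called 0 of each. The differences of RIM4 in meiosis (−1.26), PHO91 in phosphate supply (−0.94) and RSM10 among mitochondrial ribosomal proteins (−1.12) were called. No called difference of this paragraph was among the 17 that held with every single library left out.

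The loss of ROX1 was also present in rox1/rox2 cells, whose libraries are shared with none of the rox1 and WT comparison. In rox1/rox2, 321 genes (5.79%) responded to CoCl2, against 2667 (48.1%) in rox2. The difference of the responses, rox1/rox2 minus rox2, was called for 13 genes (0.234%), 3 higher (0.0541%) and 10 lower (0.18%). Of the 216 genes with a lower response in rox1 than in WT, 199 (92.1%) also had a lower value in rox1/rox2 than in rox2, against 49.5% of all genes. Of the 45 with a higher response, 38 (84.4%) had a higher value, against 50.5% of all genes. The sizes did not always carry over. The median difference of reserve carbohydrates was −0.43 in rox1/rox2 minus rox2, against −1.89 in rox1 minus WT. HXK1, PGM2 and GLC3 had uncalled positive values there (0.50, 0.03 and 0.61). For the respiratory chain the medians were −0.88 against −1.12, and for ergosterol synthesis −0.67 against −0.47. In both comparisons, 1 gene was called higher and 3 were called lower.

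RIM2 was the higher one, with 48.5 and 71.2 CPM in rox1/rox2 with CoCl2, against 66.7 and 73.6 without, and 16.3 and 22.4 CPM in rox2 with CoCl2, against 67.1, 65.7 and 66.1 without (difference 1.53, SE 0.24, adjusted p = 0.0224). SUE1, which acts in the breakdown of unstable cytochrome c, was lower in both. It had 49.2 and 43.3 CPM in rox1/rox2 with CoCl2, against 34.8 and 35.8 without, and 425 and 258 CPM in rox2 with CoCl2, against 50.8, 47.7 and 41.7 without (−2.47, SE 0.36, adjusted p = 0.0166). In rox1 and WT its difference was −1.85 (SE 0.36, adjusted p = 0.02). For both genes the large change was in the strain that keeps ROX1.

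Other genes had a called difference in rox1/rox2 and none between rox1 and WT. ARG3 had 22.5 and 21.1 CPM in rox1/rox2 with CoCl2, against 24.9 and 18.2 without, and 21.8 and 19.9 CPM in rox2 with CoCl2, against 178, 203 and 77.3 without (2.89, SE 0.49, adjusted p = 0.0317), whereas its fall remained in rox1. ELO1 rose in both rox1/rox2 (2.50) and rox2 (4.66) with a difference of −2.15 (SE 0.35), against −0.31 between rox1 and WT. MSS116, a mitochondrial RNA helicase, and CUR1, a protein sorting factor, differed by 1.54 and −2.35. HMX1 and YHB1 rose in rox1/rox2 by 5.59 and 4.25, and ERG11 and ERG13 by 1.13 and 1.44, so these responses were also present without both genes. Other rises of rox1 were not called in rox1/rox2. There LEU1, LEU2, LEU9 and OAC1 changed by 0.50, 0.55, 0.41 and 0.30 (adjusted p = 0.563, 0.359, 0.38 and 0.563). AUS1 changed by −0.13 (adjusted p = 0.79). The number of called differences in these 4 groups was 0 without rox2 replicate 1, either rox1/rox2 library without CoCl2 or rox1/rox2 CoCl2 replicate 2, with 534 to 609 genes at an unadjusted p under 0.05, and 1 without rox2 CoCl2 replicate 1. It was 7 without rox2 replicate 2, 35 without rox1/rox2 CoCl2 replicate 1 and 357 without rox2 replicate 3, a library with 14.5% of its reads outside genes.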

How the data were processed

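Each file held whole-number counts of reads per gene or exon entry (5852 entries), deposited by the authors as raw counts, made with TopHat2 and HTSeq 0.6.0 per the submitters' processing notes. The genome build and the strand setting of the counting are not given in the sources used here, and the libraries were strand-specific, single-end, with 42 bp reads. Exon entries were summed per gene (5648 genes) and the 5 counter entries were left out. Reads outside genes came to 4.52% to 19.9% of the reads in and outside genes, and to 5.51% to 6.54% in the 4 rox1 libraries. Symbols came from the RefSeq table of assembly ASM23734v1, which matched 5589 genes and named 4484. Near-identical genes can lose or exchange reads, so their levels are uncertain.

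Genes were tested with edgeR 4.0.16 in R 4.3.3 (quasi-likelihood test, two-sided, TMM scaling, filterByExpr with a minimum of 10, Benjamini-Hochberg adjustment over 5544 genes, called at an adjusted p under 0.05). All 18 libraries of the deletion experiment shared 1 estimate of the spread, and differences of responses were interaction contrasts. CPM are counts divided by the TMM-scaled library size, which compare libraries and not genes. DESeq2 1.42.0, other scalings, no filter, the compared libraries alone, a replicate block and leaving out each library were alternatives. The scripts were tested on simulated data. Intervals were not needed, and the limit of 3 counts for a count of 0 covers counting error only. RNA was extracted with either of 2 kits, and the labels do not say which served which sample.

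Named genes were the largest called rises, falls and differences between strains, among genes whose log2 CPM averaged at least 4, and the leading called members of each of 29 lists. The members and lists were chosen with earlier results of these data known, and other named genes were chosen after their values were seen. Whether same-numbered libraries pair was checked by the correlation of their deviations. One gene that the rule selects is not reported here.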

Additional observations from a re-analysis of the deposited data

Results flagged for a closer look

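The following genes stood out because the difference of their cobalt responses between strains passed the edgeR quasi-likelihood test at an adjusted p under 0.05, and each value is that log2 difference, rox1 minus WT unless another pair is named. Of 18 such genes followed through every fit, 15 lost their call without WT replicate 1, and as many without WT replicate 2, rox1 replicate 1 or rox1 CoCl2 replicate 2.

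In sugar, reserve carbohydrate and glycerol metabolism the values were −4.85 for HXK1, −3.87 for GLK1, −2.59 for EMI2, −0.80 for GPM3, −3.98 for PGM2, −2.87 for GPH1, −2.36 for GSY2, −2.06 for GLC3, −2.09 for TSL1, −1.89 for TPS1, −3.77 for GAC1, −1.75 for GUT1 and 2.04 for GPP2. In respiration they were −3.57 for NDE1, −2.02 for CYC7, −2.03 for QCR7, −1.79 for STF1, −1.75 for CYT1, −1.62 for COX7, −1.37 for COX13, −1.22 for ATP3 and −1.85 for SUE1.

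In sterol synthesis and its neighbours they were −1.42 for ERG5, −1.30 for ERG4, −0.96 for ERG24 and −0.95 for ERG27, and among regulators −1.25 for HAP2, −0.66 for HAP1, −2.19 for MSS11 and −2.06 for SIP4. For metals, iron and redox they were −2.78 for CTR1, −2.75 for ZRC1, −1.06 for ZRT3, −2.02 for ISA2, −1.39 for GRX4 and −3.07 for GPX1. For stress and autophagy they were −3.41 for HSP104, −2.71 for HSP42, −4.27 for EGO4, −3.07 for PHM7, −1.62 for ATG8 and −1.20 for ATG42.

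In amino acid, nitrogen and acetate metabolism they were 1.89 for OAC1, 1.74 for HIS6, −2.50 for ARO9, −3.10 for GDH2, −2.02 for MUP3 and −2.81 for ACS1. Further genes were RIM2 at 1.48, SMB1 at 1.33, PXR1 at 2.13, RPL43B at 1.96, ENV9 at 1.82, ISF1 at −3.76, LST4 at −2.16, DIN7 at −2.26, RIM4 at −1.26, PHO91 at −0.94, RSM10 at −1.12 and FHN1 at −2.63. Genes without a symbol were NCAS0D00350 at 2.58, NCAS0E02010 at −3.16, NCAS0F03100 at −3.40, NCAS0A10820 at −1.09, NCAS0B08610 at −4.19 and NCAS0B02500 at −5.64.

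Between rox1/rox2 and rox2 the called log2 differences of named genes were 2.89 for ARG3, 1.53 for RIM2, 1.54 for MSS116, −2.47 for SUE1, −2.36 for CUR1 and −2.16 for ELO1. Outside the gene counts, alignments at several places came to 42.8 and 37.7 per 100 gene counts in the rox1 libraries with CoCl2, above the 30.1 and 28.8 of the rox1 libraries without it.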

How the results depend on the processing

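The 447 calls of the rox1 response became 730 with DESeq2 and 52 with the 4 compared libraries alone, and between 126 and 930 with 1 library left out. With total counts as the scale, which moved the median of all genes to 0.21 (log2), 362 were called and 81.5% rose, against 60.2%. The 2607 calls of the WT CoCl2 response ranged from 1470 to 2721 with 1 library left out, and total counts gave 75.0% rising, against 58.8%. The 261 differences, rox1 minus WT, became 85 with total counts, 639 with DESeq2 and 581 without the 3 rox2 libraries with over 9% of reads outside genes, an alternative chosen after seeing the data, and between 19 and 504 with 1 library left out. The 13 differences, rox1/rox2 minus rox2, became 185 with DESeq2, 0 with the compared groups alone (672 at an unadjusted p under 0.05) and between 0 and 357 with 1 library left out.

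With a replicate block the rox1 response had 406 calls and the differences 435 and 66, but same-numbered rox1 libraries did not deviate together (correlation −0.12 over genes), so the samples share only a number. A crossed pairing, chosen after seeing the data, gave 402 calls.

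Of 72 named genes called in the rox1 response, 72 kept their call with DESeq2, 66 with total counts, 31 without rox1 replicate 1 and 17 with the compared libraries alone. The cause of these shifts was not tested. With 2 libraries a group, differences under the spread between libraries were not detectable.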
